A study of Mus musculus with 27 samples.

Results

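Unstimulated bone marrow derived macrophages (BMDMs) were compared with unstimulated mouse embryonic fibroblasts (MEFs) by bulk RNA sequencing. The comparison used 3 BMDM libraries and 3 MEF libraries, 6 of the 27 libraries of the series, taken by their labelled cell type and by the label for no stimulation. BMDMs are macrophages grown in culture from bone marrow precursors, and MEFs are connective tissue cells grown from embryos. In both groups equal numbers of cells per well (600000) had been seeded in 6-well plates and left overnight before total RNA was isolated with the same kit, and libraries were made with the same directional kit. The series as a whole asks how imidazole propionate (ImP), a histidine metabolite of gut bacteria, alters transcription in BMDMs, MEFs and another cell type, and the 6 libraries described here are the ones that received none. The labels give no mouse strain, age, sex, genotype, passage number or growth factor for either cell type, and nothing in them ties a replicate to its own culture or animal. Each p-value below is thus set against the variation among 3 libraries of a group, which could be technical variation alone. No sequencing batch is labelled either, so a batch that followed the cell type cannot be told apart from it.

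Macrophages clear debris and microbes: they bind them with Fc receptors, lectins and complement receptors, digest them in lysosomes, and handle the lipid and iron that are released. Their identity rests on transcription factors such as PU.1 and on signalling from colony stimulating factor 1 through its receptor. Fibroblasts build the collagen matrix, attach to it through integrins and stress fibres, sense its stiffness through the Hippo pathway factors YAP and TAZ, and supply growth factors, colony stimulating factor 1 among them, to macrophages.

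The libraries held 30.6 to 35.6 M estimated counts, so that 3 counts over a group's 3 libraries, used as the detection floor, corresponded to 0.0353 CPM in BMDMs and 0.026 CPM in MEFs. Levels are CPM, counts relative to a TMM-scaled library size, and where genes are compared with each other, TPM, which also divide by gene length and carry no TMM factor. Genes on X and Y were left out, as were genes whose chromosome could not be looked up, and 13638 of the 23895 genes kept had enough counts to be tested. A gene was called at a Benjamini-Hochberg adjusted p below 0.05 in edgeR's quasi-likelihood test, and every log2 fold change is BMDMs over MEFs with its standard error (SE). At this threshold 5435 genes were higher in BMDMs (39.9% of those tested) and 5747 were lower (42.1%), against 2456 that did not pass. With counts scaled by library totals alone, 37.8% of the calls were higher in BMDMs, against 48.6% with TMM, and the median log2 fold change of all genes moved by -0.39. A call was thus the usual outcome for a gene, made for 82% of those tested, and 84.4% of genes had no overlap between the 3 BMDM and the 3 MEF values. Counts of list members higher or lower below are to be read beside these shares. By size, 27.1% of genes were higher and 28.1% lower by a log2 fold change of at least 1, 6.86% were higher and 7.75% lower by at least 5, and 0.968% were higher and 0.484% lower by at least 10. The first principal component, which separated the cell types, held 96.1% of the variance of log2 CPM. Pearson correlations of log2 CPM across genes were 0.581 to 0.596 between a BMDM and a MEF library and at least 0.9863 between replicates, although genes are not independent replicates. Because the RNA was taken from whole cultures, a lower level cannot be told apart from fewer cells that express the gene.

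The BMDM libraries drew more of their counts from a few genes: the 10 most counted genes of a library took 12.5 to 14.7% of its counts in BMDMs, against 4.29 to 4.45% in MEFs. The second BMDM library stood apart within its group. Of 9634 genes averaging 5 CPM or more, 81 differed there by 2-fold or more from the other BMDM libraries, against 4 to 13 genes in each of the other 5 libraries. The transcript CT010467.1 took 1.98% of its counts, against 0.331% and 0.19% in the other BMDM libraries and 0.0981 to 0.316% in the MEF libraries. Without this library 5498 genes were called higher and 5801 lower, and no gene named below that was called with or without it changed direction. Mitochondrially encoded genes took 2.34 to 2.69% of counts in BMDM libraries and 1.46 to 2.04% in MEF libraries, and the part of this difference in the results was not tested.

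**Figure D1:**
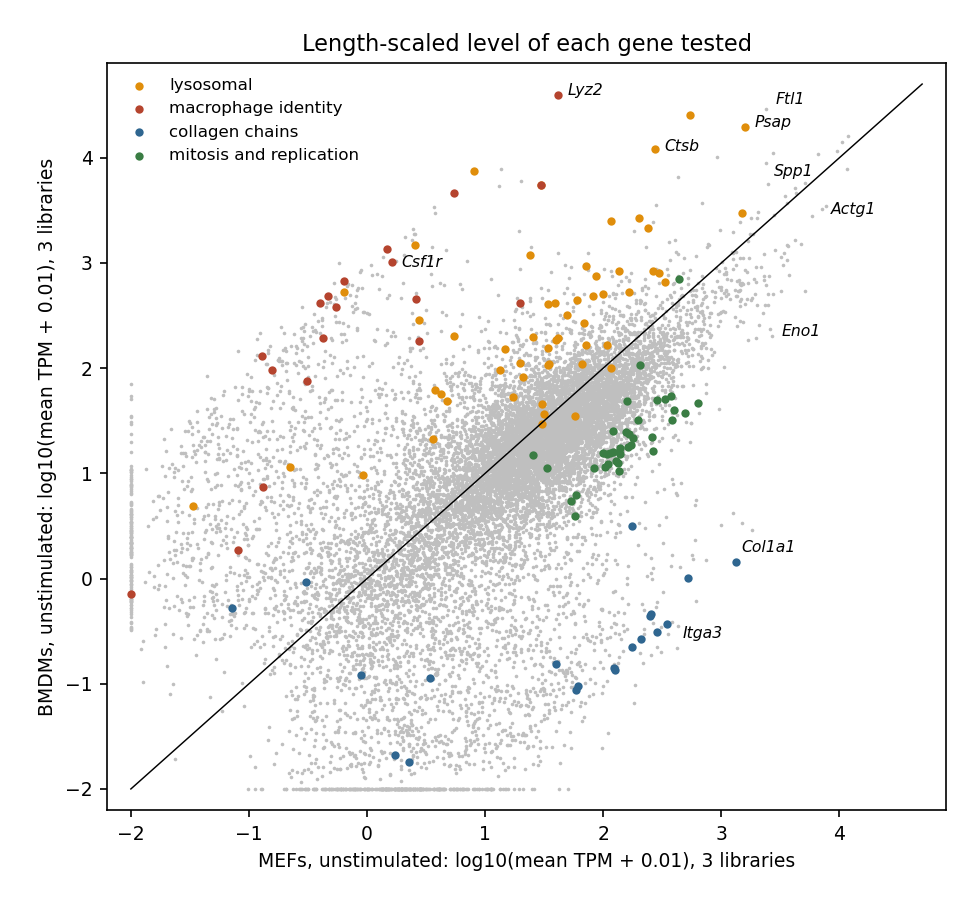
Mean length-scaled level of each of the 13638 genes tested, on log10(TPM + 0.01) scales, in BMDMs (vertical axis) and in MEFs (horizontal axis); the line marks equal levels and genes listed at 0 lie at -2. Macrophage identity genes and nearly all lysosomal genes sit above the line, and collagen chains and genes of mitosis and replication sit mostly below it.

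The macrophage label was borne out by 11 of 12 BMDM markers, which had a mean of at least 10 CPM in BMDMs. Lyz2, which encodes lysozyme (chr10:117277331-117282321, GRCm38), had 18334, 19031 and 17197 CPM in the BMDM libraries and 9.84, 18 and 11.1 CPM in the MEF libraries. Csf1r, the receptor for colony stimulating factor 1, had 1952, 2187 and 2023 CPM in BMDMs, against 1.65, 3.12 and 1.83 CPM in MEFs. The exception was Cx3cr1, the fractalkine receptor, with 2.74, 2.36 and 3.76 CPM in BMDMs and 0.074, 0.153 and 0 CPM in MEFs, which do not overlap. The 12 BMDM markers summed to between 26718 and 29059 CPM in BMDM libraries and between 36.3 and 48.8 CPM in MEF libraries.

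The fibroblast label was met in part. Of 13 fibroblast markers 9 reached 10 CPM in MEFs, led by Vim, Col1a1 and Col1a2, but several markers commonly used for fibroblasts were low. Thy1, a surface glycoprotein of many fibroblasts, had 0.721, 0.556 and 0.865 CPM in BMDMs and 0.543, 0.996 and 0.927 CPM in MEFs, which overlap (log2 fold change -0.20 ± 0.461, not called). The decorin gene Dcn had 6.46, 5.95 and 6.97 CPM in MEFs, the type III collagen gene Col3a1 2.24, 2.04 and 1.85 CPM, and the lumican gene Lum was at 0 counts there. Vim, the intermediate filament gene often used to mark mesenchymal cells, was higher in BMDMs (2087 ± 32.6 CPM) than in MEFs (1489 ± 131 CPM, SD, n = 3 each; log2 fold change 0.49 ± 0.0846). With library totals alone its log2 fold change was 0.09 and not called. In TPM, which carry no TMM factor, it stood at 1257 in BMDMs and 1323 in MEFs. S100a4 did not pass the test (log2 fold change 0.16 ± 0.0965), but was called higher, at 0.27, without the third BMDM library.

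Markers of other cell types were mostly near 0, with some exceptions in each group. In BMDMs, Vwf, which encodes von Willebrand factor and is used as an endothelial marker, stood at 150.4, 162 and 156 CPM, against 0.074, 0.434 and 0.141 CPM in MEFs, while the endothelial genes Tek and Emcn were at 0 counts in BMDMs and Cdh5 was at 0.306 CPM. Cd4, a T cell co-receptor, stood at 34.5, 37.5 and 35.3 CPM in BMDMs, against 0, 0.0255 and 0.0281 CPM in MEFs, with the T cell receptor component Cd3e at 0.175 CPM in BMDMs. The adipocyte markers Pparg and Fabp4 reached 85.6 and 200.1 CPM in BMDMs, against 12.5 and 3.37 CPM in MEFs. The cartilage genes Acan and Sox9 were at 0.143 and 0.22 CPM in BMDMs, against 125 and 60.7 CPM in MEFs, with Col2a1 below the filter. The neural genes Map2 and Tubb3 were at 0.308 and 0.169 CPM in BMDMs, against 66 and 48.1 CPM in MEFs. The 6 smooth muscle markers summed to between 5.04 and 6.74 CPM in BMDM libraries and between 213 and 228 CPM in MEF libraries. Most of it was Smtn, which encodes smoothelin (3.16 CPM in BMDMs, 205 CPM in MEFs). Myh11 was at 0 counts in BMDMs. How these genes bear on the differences below was not tested. The 6 epithelial markers summed to at most 0.036 CPM in a BMDM library and 2.02 CPM in a MEF library.

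**Figure D2:**
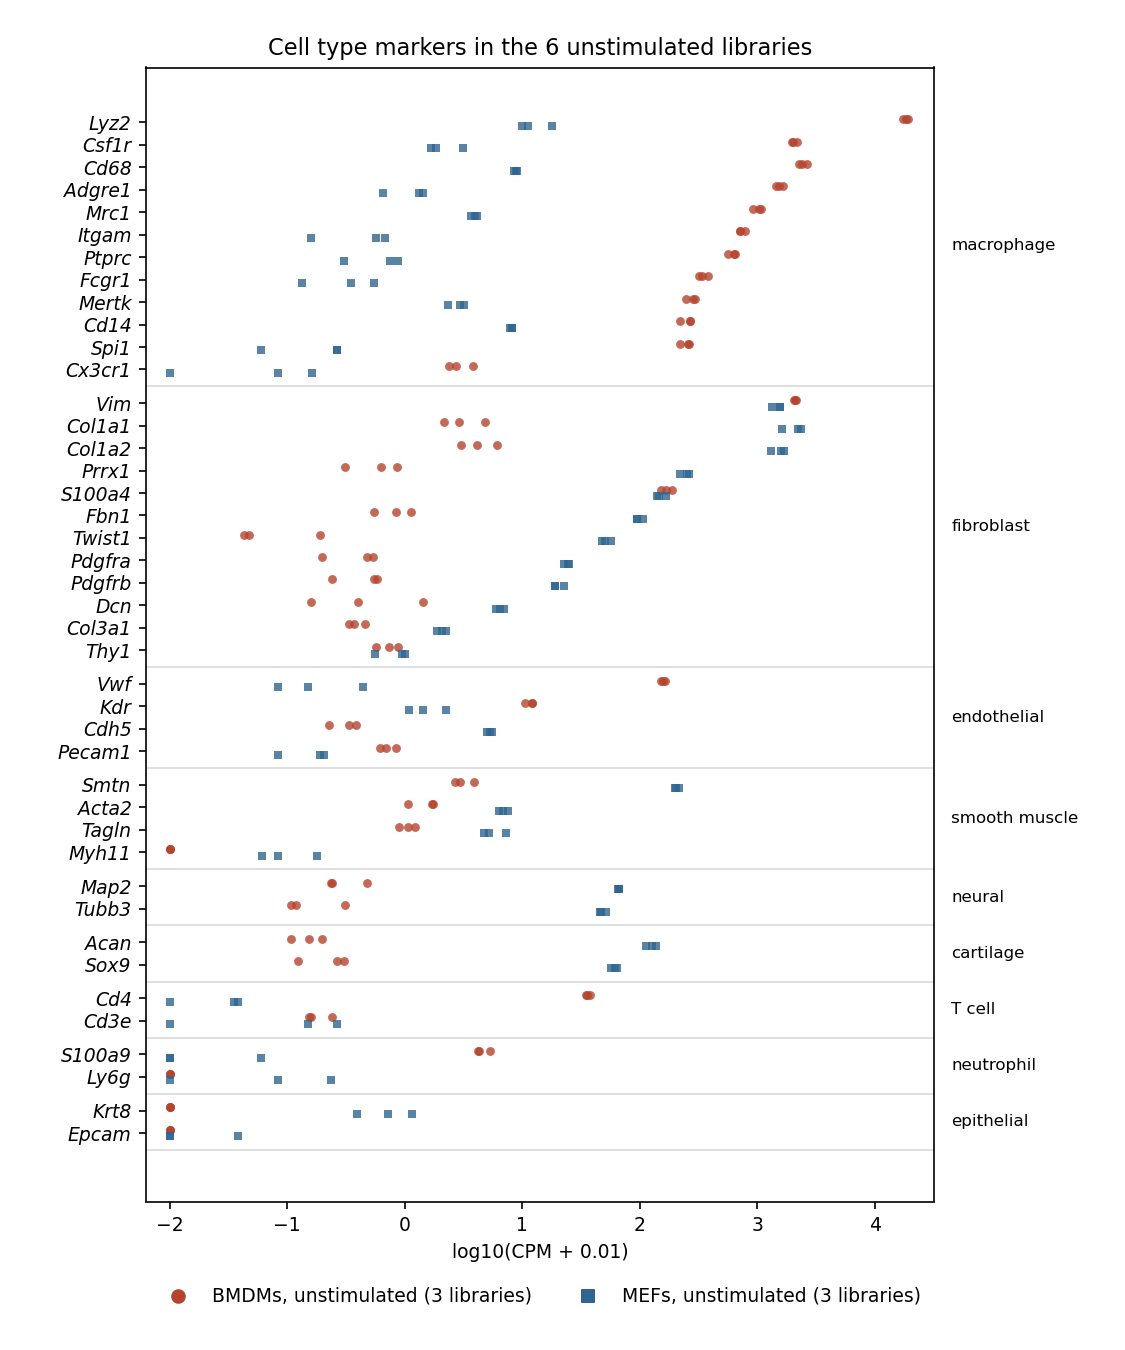
Markers of 9 cell types by library, as log10(CPM + 0.01), with the BMDM libraries as circles above the MEF libraries as squares in each row; values of 0 lie at -2. The 12 macrophage markers do not overlap between the groups, while Vim, S100a4 and Thy1 lie close together and Vwf and Cd4 are high in BMDMs.

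Abundant genes of each cell type were mostly detected in the other at a low level. For 172 genes with at least 200 CPM in BMDMs and a log2 fold change of at least 5, the median level in the MEF libraries was 0.13, 0.18 and 0.141% of the BMDM level. For 63 genes with at least 200 CPM in MEFs and a log2 fold change of at most -5, the median level in the BMDM libraries was 0.396, 0.267 and 0.227% of the MEF level. Because these genes were chosen by fold, a low level on the other side was fixed by the choice. The source of the counts found there was not tested.

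Transcription factors of the myeloid and blood lineages were higher in BMDMs for 20 of 22 tested members, with 4 more below the filter, and their median log2 fold change was 7.21, against -0.05 for all genes tested. Spi1, which encodes PU.1 (chr2:91082390-91115756), had 261, 221 and 255 CPM in BMDMs and 0.0493, 0.256 and 0.253 CPM in MEFs, a 1320.2-fold difference (log2 fold change 10.37 ± 0.22, edgeR adjusted p = 9.87e-13). Irf8, a partner of PU.1, had 315, 268 and 302 CPM in BMDMs, against 0.197, 0.153 and 0.169 CPM in MEFs. Cebpa, a driver of the myeloid lineage, averaged 253 ± 54.6 CPM in BMDMs and 0.338 ± 0.122 CPM in MEFs (SD, n = 3 each). In none of these genes did the groups overlap, and every MEF library was below 1 CPM. Maf, a factor of mature macrophages, had 718 CPM in BMDMs, against 12 CPM in MEFs. Others were shared: Runx1, a regulator of blood stem cell formation, differed by 1.93-fold (88.5 CPM in BMDMs, 45.7 CPM in MEFs), and Cebpb by 1.51-fold (25.4 CPM in BMDMs, 16.8 CPM in MEFs), a call lost with library totals alone (log2 fold change 0.20) and in the fit of 27 libraries (0.60, edgeR adjusted p = 0.117). Runx3, known from T cells and skeletal development, went the other way, with 1.51, 1.54 and 1.96 CPM in BMDMs and 68.9, 78.8 and 91.1 CPM in MEFs (log2 fold change -5.58 ± 0.153, edgeR adjusted p = 6.63e-13). The progenitor factor Myb was also called lower, at 0.144, 0.196 and 0.602 CPM in BMDMs and 1.13, 0.332 and 1.24 CPM in MEFs, values that overlap. Its call (edgeR adjusted p = 0.0469) was lost without the first or second BMDM library or without the first or the third MEF library, with log2 fold changes of -1.16, -1.26, -1.32 and -1.23, against -1.52 with all 6.

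Mesenchymal and patterning transcription factors were lower in BMDMs for 26 of 28 tested members, with a median log2 fold change of -7.37, and 21 more were below the filter in both cell types. Prrx1, a factor of limb and craniofacial mesenchyme, had 0.613, 0.851 and 0.301 CPM in BMDMs, against 254, 221 and 259.5 CPM in MEFs. Twist1, which acts in mesoderm, had 0.18, 0.0327 and 0.0376 CPM in BMDMs and 50.4, 47.7 and 56.6 CPM in MEFs. No count of Tbx3 or Foxf1 was found in any BMDM library, against 22.4, 26 and 25.6 CPM and 24, 21.8 and 26.8 CPM in MEFs. Against the floor of 3 counts over the BMDM libraries, Tbx3, a limb and heart patterning factor, was at least 697-fold lower, and Foxf1, a factor of visceral mesenchyme, at least 682-fold lower. Zeb2, best known as a repressor of E-cadherin in epithelial-mesenchymal transition, was the exception, with 563, 637 and 710.2 CPM in BMDMs and 55.2, 57.4 and 60.3 CPM in MEFs (log2 fold change 3.47 ± 0.0999, edgeR adjusted p = 1.06e-12). Its relative Zeb1 had 3.68 CPM in BMDMs and 51.1 CPM in MEFs. Foxp1 did not pass the test (99.3 ± 1.73 CPM in BMDMs, 103 ± 5.08 CPM in MEFs; log2 fold change -0.06 ± 0.0771).

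Hox genes, which record position along the body axis, were expressed at low levels. Of 39 looked up, 7 were not in the table used, 5 of them from the HoxD cluster, 18 were below the filter and 14 were tested, 8 from the HoxA and 6 from the HoxB cluster, and none of the 8 HoxC and 4 HoxD genes in the table passed the filter. In BMDMs 11 were lower and 2 higher. Hoxa7 had 0.505, 0.622 and 0.677 CPM in BMDMs and 5.62, 5.65 and 5.96 CPM in MEFs, and Hoxa3 had 0.216, 0.131 and 0.0752 CPM in BMDMs and 4.76, 5.47 and 5.42 CPM in MEFs. Hoxa10 had no count in BMDMs, against 1.31, 2.45 and 1.88 CPM in MEFs, and was at least 53-fold lower. In the HoxB cluster the direction differed between neighbours. Hoxb4, used to expand blood progenitors in culture, had 7.35, 3.86 and 5.19 CPM in BMDMs and 0.345, 0.562 and 0.0562 CPM in MEFs (log2 fold change 4.05 ± 0.524), and its neighbour Hoxb3 was higher as well (2.16 ± 0.575), while Hoxb5, Hoxb6, Hoxb8 and Hoxb9 were lower, Hoxb6 by -4.57 ± 0.79 and Hoxb9 with 1 count over the BMDM libraries and 4.14, 3.83 and 2.84 CPM in MEFs.

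**Figure D3:**
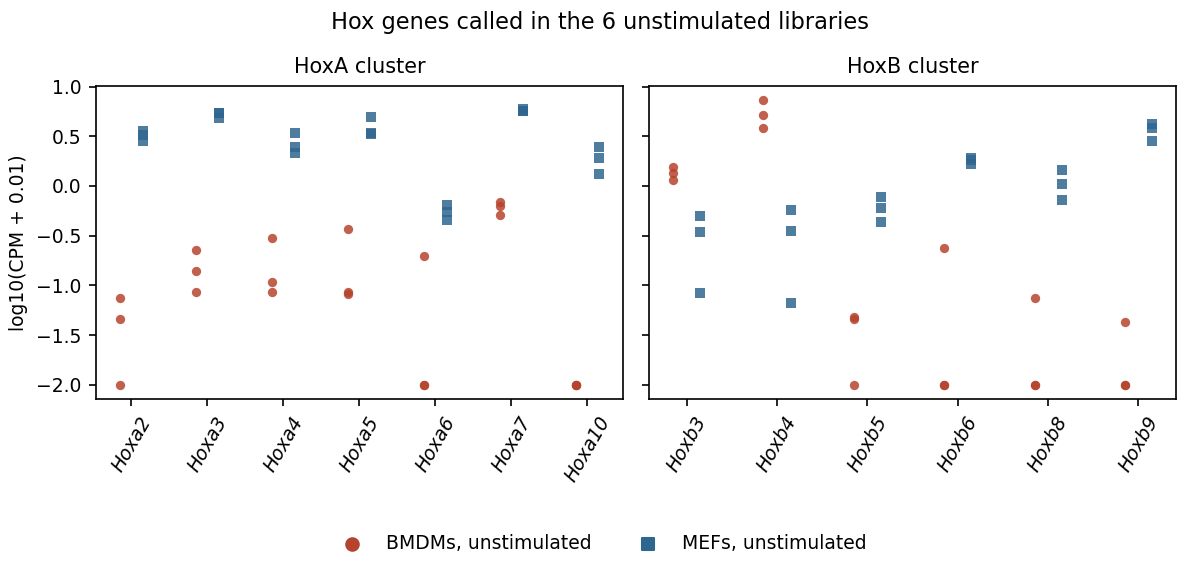
Genes of the HoxA and HoxB clusters called in either direction, by library, as log10(CPM + 0.01), with BMDM libraries as circles left of the MEF libraries as squares; values of 0 lie at -2. Of these, Hoxb3 and Hoxb4 are higher in every BMDM library than in every MEF library.

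The promoters of these genes were read from RefSeq's promoter windows (GRCm38.p6, 250 bases before to 50 bases after each annotated start), which held 10433 of the 13638 genes tested and 591 of the 788 list members tested. The letters GAGGAAGT, a PU.1-type motif searched on both strands, were present in 124 of 1527 promoters of genes higher in BMDMs by a log2 fold change of at least 3 (8.12%, exact 95% interval 6.8 to 9.61%). They were present in 35 of 1544 promoters of genes lower by at least as much (2.27%, 1.58 to 3.14%), in 2.7% of promoters of genes under 2-fold or not called, and in 3.25% of all 31396 promoters off the X and Y chromosomes. Leaving out the 50 bases after the start gave 6.35% for the higher and 1.88% for the lower genes. The median ratio of observed to expected CpG was 0.401 in promoters of the higher genes, 0.59 in those of the lower genes and 0.801 in those under 2-fold or not called, so that these groups also differ in base composition. An AP-1-type motif, TGANTCA, was found in 8.51% of promoters of higher and 8.61% of lower genes (exact 95% intervals 7.16 to 10.0% and 7.26 to 10.1%). It was in 4.35% (3.85 to 4.89%) of promoters of genes under 2-fold or not called and in 7.84% of all promoters. The TEAD-type motif GGAATG was in 12.9% of promoters of higher and 14.4% of lower genes, against 11.5% of those under 2-fold or not called and 14.6% of all. The letters TATAAA were in 10.5% of promoters of higher and 9.52% of lower genes, against 6.26% of those under 2-fold or not called and 13.6% of all. The 95% intervals of the TEAD-type share overlapped between higher genes (11.3 to 14.7%) and genes under 2-fold or not called (10.7 to 12.3%). The interval of lower genes (12.7 to 16.2%) lay above that of genes under 2-fold or not called. It overlapped the interval of higher genes and held the 14.6% of all promoters. No motif contains another. The intervals cover counting error only, promoters of 1 gene and of neighbouring genes are not independent, and a match is not a binding site.

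Of 188 list members with a promoter in the table and a log2 fold change of at least 3, 18 held the PU.1-type letters, against 8.12% of the promoters of all genes higher by as much. These shares differ in unit, genes against promoters, as the 1527 promoters belong to 1171 genes. In 12 of the 18 the match began within 50 bases of the start. Match positions in other promoters are not given here, so this placement has no background beside it. Shown here to place these letters relative to the start, with every match to any of the 4 motifs in capitals, are the promoters of the 4 most abundant list members with a PU.1-type match and a log2 fold change of at least 5, followed by those of the 3 most abundant list members with an AP-1-type, TEAD-type or TATA-type match and a log2 fold change of at most -5, each with 1 promoter in the table. The PU.1-type match reads as the reverse complement in all 4, beginning 2 bases before the start in Ctss (chr3:95526536-95526835, + strand), 195 before in C1qc (chr4:136892865-136893164, - strand), 10 before in Pf4 (chr5:90772185-90772484, + strand) and 27 after in Csf2rb2 (chr15:78305672-78305971, - strand). A TATA-type match also begins 233 bases before the start in Ctss, and a TEAD-type match 128 before it in Csf2rb2. In Ccn1 (chr3:145649936-145650235, - strand) a TEAD-type match begins 103 bases and a TATA-type match 25 bases before the start, in Ankrd1 (chr19:36119795-36120094, - strand) TEAD-type matches begin 210 and 123 bases before it, and in Itga3 (chr11:95069149-95069448, - strand) an AP-1-type match begins 12 bases after it.
Ctss: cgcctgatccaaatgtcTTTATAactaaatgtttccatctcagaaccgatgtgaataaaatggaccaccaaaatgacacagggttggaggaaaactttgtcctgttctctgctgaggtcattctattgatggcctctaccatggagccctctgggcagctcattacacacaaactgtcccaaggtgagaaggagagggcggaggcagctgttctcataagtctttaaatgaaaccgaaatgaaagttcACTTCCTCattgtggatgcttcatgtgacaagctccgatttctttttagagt
C1qc: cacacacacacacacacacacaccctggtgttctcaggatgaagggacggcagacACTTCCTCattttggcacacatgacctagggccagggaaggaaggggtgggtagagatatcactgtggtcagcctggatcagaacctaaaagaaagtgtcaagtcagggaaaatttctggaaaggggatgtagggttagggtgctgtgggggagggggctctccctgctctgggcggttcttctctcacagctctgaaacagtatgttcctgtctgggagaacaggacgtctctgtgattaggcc
Pf4: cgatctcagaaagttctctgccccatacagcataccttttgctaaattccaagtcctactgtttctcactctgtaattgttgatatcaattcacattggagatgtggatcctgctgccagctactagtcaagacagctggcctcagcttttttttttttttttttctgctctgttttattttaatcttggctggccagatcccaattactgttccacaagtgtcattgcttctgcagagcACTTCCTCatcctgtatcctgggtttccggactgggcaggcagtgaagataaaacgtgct
Csf2rb2: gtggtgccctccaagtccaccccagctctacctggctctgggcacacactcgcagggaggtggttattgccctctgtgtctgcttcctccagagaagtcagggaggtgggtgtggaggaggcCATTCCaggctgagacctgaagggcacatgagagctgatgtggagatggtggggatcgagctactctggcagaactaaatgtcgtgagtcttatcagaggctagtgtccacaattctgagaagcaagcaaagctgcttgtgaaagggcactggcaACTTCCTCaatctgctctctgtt
Ccn1: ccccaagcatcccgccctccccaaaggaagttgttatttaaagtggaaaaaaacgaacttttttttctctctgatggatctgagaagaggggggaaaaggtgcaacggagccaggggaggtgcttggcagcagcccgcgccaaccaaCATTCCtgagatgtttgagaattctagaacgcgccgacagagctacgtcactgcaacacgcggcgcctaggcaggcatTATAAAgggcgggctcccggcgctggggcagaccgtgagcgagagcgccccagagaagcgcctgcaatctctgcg
Ankrd1: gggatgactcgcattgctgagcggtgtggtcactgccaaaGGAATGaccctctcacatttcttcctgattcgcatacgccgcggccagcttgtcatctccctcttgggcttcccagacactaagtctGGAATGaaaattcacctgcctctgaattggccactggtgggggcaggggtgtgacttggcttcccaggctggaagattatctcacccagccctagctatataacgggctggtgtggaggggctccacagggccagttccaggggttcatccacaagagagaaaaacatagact
Itga3: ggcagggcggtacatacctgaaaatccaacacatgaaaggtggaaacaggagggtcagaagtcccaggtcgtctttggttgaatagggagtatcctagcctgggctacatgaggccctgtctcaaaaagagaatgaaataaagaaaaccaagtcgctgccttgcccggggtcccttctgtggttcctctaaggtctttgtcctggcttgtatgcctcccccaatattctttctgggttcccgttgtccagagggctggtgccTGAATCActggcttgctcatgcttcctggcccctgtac

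The 4 genes with a PU.1-type match encode a lysosomal cysteine protease (Ctss), a chain of complement C1q (C1qc), platelet factor 4 (Pf4) and a beta subunit of the interleukin 3 receptor (Csf2rb2). Ctss had 3317, 3690.3 and 3669 CPM in BMDMs and 1.73, 4.06 and 2.02 CPM in MEFs, and C1qc had 1275, 1048 and 1261 CPM in BMDMs and 0.765, 1.35 and 0.759 CPM in MEFs. Per length Ctss was the most abundant of the 4 in BMDMs (7482 TPM, against 8.07 TPM in MEFs), followed by C1qc (1770.3 and 2.09 TPM), Pf4 (413 and 0.451 TPM) and Csf2rb2 (327 and 0.343 TPM).

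Lysosomal genes took a larger share of BMDM counts than any other list. The 54 tested lysosomal list members took 8.74 to 9.39% of all counts in BMDM libraries and 0.643 to 0.687% in MEF libraries. Of 54 tested, 53 were higher in BMDMs, by a median log2 fold change of 3.33. The aspartic protease gene Ctsd had 19930.3, 22227 and 20675 CPM in BMDMs, against 289, 321 and 301 CPM in MEFs. The cysteine protease gene Ctsb had 24568, 27519 and 25464 CPM in BMDMs, against 382, 418 and 379.7 CPM in MEFs. Psap, whose product activates the breakdown of sphingolipids, had 17815, 20383 and 18582 CPM in BMDMs and 1032, 999 and 1077 CPM in MEFs. All 13 cathepsin and legumain genes were higher, from 2.00 in Ctsl to 10.41 in Ctss on the log2 scale, and the proton pump subunit gene Atp6v0d2 was nearly confined to BMDMs (500.0 CPM in BMDMs, 0.405 CPM in MEFs). Gaa, the acid glucosidase gene, differed by 1.27-fold (168 CPM in BMDMs, 132 CPM in MEFs), a direction that turned with library totals alone (log2 fold change -0.05, not called). Arsa, the arylsulfatase A gene, did not pass (45.5 ± 1.49 CPM in BMDMs, 50.4 ± 3.41 CPM in MEFs), but was called lower with library totals alone (-0.54). Mitf and Tfeb, factors that switch on lysosomal genes, were higher by 4.31 ± 0.0989 and 3.11 ± 0.174 (log2 fold change with SE).

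Receptors and adaptors that start phagocytosis were present almost only in BMDMs. All 25 tested members of the list of Fc receptors, adaptors that carry an activation motif and their kinases were higher, with a median log2 fold change of 9.03, and 2 were below the filter. Tyrobp, the adaptor DAP12, had 821, 834 and 740.3 CPM in BMDMs and 0.469, 0.562 and 0.731 CPM in MEFs, and Trem2, a lipid-sensing receptor that signals through it, had 1245, 1114 and 1113 CPM in BMDMs and 0.493, 1.15 and 0.562 CPM in MEFs. Syk, the kinase downstream of both, was shared more widely, with 580.1 CPM in BMDMs and 37.6 CPM in MEFs (log2 fold change 3.95 ± 0.0928). Of 26 tested C-type lectin and Ms4a genes 25 were higher and 1 lower (2 lower without any 1 of the BMDM libraries or the third MEF library). The exception was Mrc2, a collagen uptake receptor, with 0.613, 0.589 and 0.15 CPM in BMDMs and 85.2, 73.9 and 94.6 CPM in MEFs, while its paralog Mrc1, the mannose receptor, had 1009 CPM in BMDMs and 3.89 CPM in MEFs. The oxidase of phagocytes showed the same division: genes such as Cyba, Ncf1, Ncf4 and Rac2 were higher by 6.40 to 10.17, Nox4, a fibroblast oxidase, had no count in BMDMs and 1.68 CPM in MEFs (at least 47.6-fold lower), Duox1 was lower with 1 count in BMDMs (0.89 CPM in MEFs), and Rac1 did not pass (480.0 CPM in BMDMs, 474 CPM in MEFs). Cytoskeleton genes of leukocytes were higher for all 20 tested members, among them Lcp1, an actin bundler, at 2483 CPM in BMDMs and 3 CPM in MEFs.

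Lipid and iron genes were among the most abundant in BMDMs. Of 23 tested genes of lipid uptake, storage and efflux, 22 were higher, with a median log2 fold change of 5.45. Lpl, the lipoprotein lipase gene, had 7932, 7191 and 7907 CPM in BMDMs and 3.77, 8.46 and 5.93 CPM in MEFs, and Cd36, a scavenger receptor for oxidised lipoproteins, had 3589, 3775 and 3949 CPM in BMDMs and 2.2, 4.32 and 3.12 CPM in MEFs. Gpnmb, a glycoprotein of lipid-laden macrophages, had 13053, 13797 and 13862 CPM in BMDMs and 24.8, 37.6 and 30.5 CPM in MEFs. Apoe, which encodes the cholesterol carrier apolipoprotein E, varied most among the BMDM libraries, at 5108, 2190.3 and 4725 CPM, the second library being lower than the others by more than 2-fold, and was at 6.12, 7.69 and 5.96 CPM in MEFs (log2 fold change 9.25 ± 0.51). Cholesterol exporters differed in how far they were shared: Abcg1 was at 373 CPM in BMDMs and 0.343 CPM in MEFs, Abca1 at 1207 CPM in BMDMs and 50.4 CPM in MEFs. The exception was the very low density lipoprotein receptor gene Vldlr, with 0.144, 0.458 and 0.226 CPM in BMDMs and 32.3, 31.3 and 29.2 CPM in MEFs. Of 16 iron genes 12 were higher and 4 lower. The ferritin chain genes Ftl1 and Fth1 had 13481 ± 634 and 12441 ± 969 CPM in BMDMs, against 766 ± 19.8 and 757 ± 12 CPM in MEFs (SD, n = 3 each), and the iron exporter Slc40a1 had 726 CPM in BMDMs and 3.15 CPM in MEFs. Those lower in BMDMs were Slc39a14 (-1.78), Ireb2 (-0.72), Fbxl5 (-0.43) and Steap4, which had no count in BMDMs.

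Immune sensing genes were mostly but not wholly on the macrophage side. Of 36 tested pattern recognition genes 32 were higher in BMDMs, 3 lower and 1 did not pass. Tlr4, the endotoxin receptor, was expressed in both (208 CPM in BMDMs, 28.4 CPM in MEFs; log2 fold change 2.88 ± 0.104), whereas Tlr9 and Tlr1 were at 24 and 70.8 CPM in BMDMs and 0.08 and 0.164 CPM in MEFs. The flagellin receptor Tlr5, the peptidoglycan sensor Nod2 and the DNA sensor Cgas were lower in BMDMs: Tlr5 had 2.56, 2.36 and 1.17 CPM in BMDMs and 6.04, 5.62 and 6.8 CPM in MEFs, Nod2 8.11, 9.32 and 6.28 and 20.2, 23 and 21.9 CPM, and Cgas 22.2, 18.7 and 20.5 and 38.3, 38.6 and 37.2 CPM in the same order. Of 37 interferon-stimulated genes 33 were higher in BMDMs in these unstimulated cultures, with a median log2 fold change of 2.94, among them Oas3 (7.35) and Rsad2 (4.62). Isg15, Isg20, Oasl1 and Ifi205 were lower, Isg15 with 12.7, 7.82 and 14.9 CPM in BMDMs and 27.2, 28 and 26.5 CPM in MEFs.

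Of 19 tested complement genes 12 were higher in BMDMs, 4 lower and 3 did not pass. The 3 C1q chain genes were higher in BMDMs by 10.27 to 10.39 on the log2 scale, C1qb having 1716, 1731 and 1701 CPM in BMDMs and 0.789, 2.4 and 0.899 CPM in MEFs, and the receptor genes C3ar1 and C5ar1 were higher by 9.19 ± 0.154 and 10.38 ± 0.154. C1s1, the protease that acts next to C1q, was lower in BMDMs (0.0943 CPM) than in MEFs (4.1 CPM, log2 fold change -5.39 ± 0.421), as were C3 (-0.95 ± 0.162), the lectin pathway protease Masp1 (-7.06 ± 0.192) and the regulator clusterin, Clu (-5.75 ± 0.415), while C1ra did not pass (-0.22 ± 0.156). For antigen presentation, the class I genes H2-K1 and H2-D1 were abundant in both, at 1238 and 3341 CPM in BMDMs and 302 and 419 CPM in MEFs. All 11 tested class II genes were higher in BMDMs but at low levels: H2-Aa had 12.3, 16.6 and 13.4 CPM in BMDMs and 0.0493, 0.128 and 0.253 CPM in MEFs, and the invariant chain gene Cd74 had 38.5, 49.7 and 38.6 CPM in BMDMs and 4.66, 6.95 and 6.07 CPM in MEFs.

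**Figure D4:**
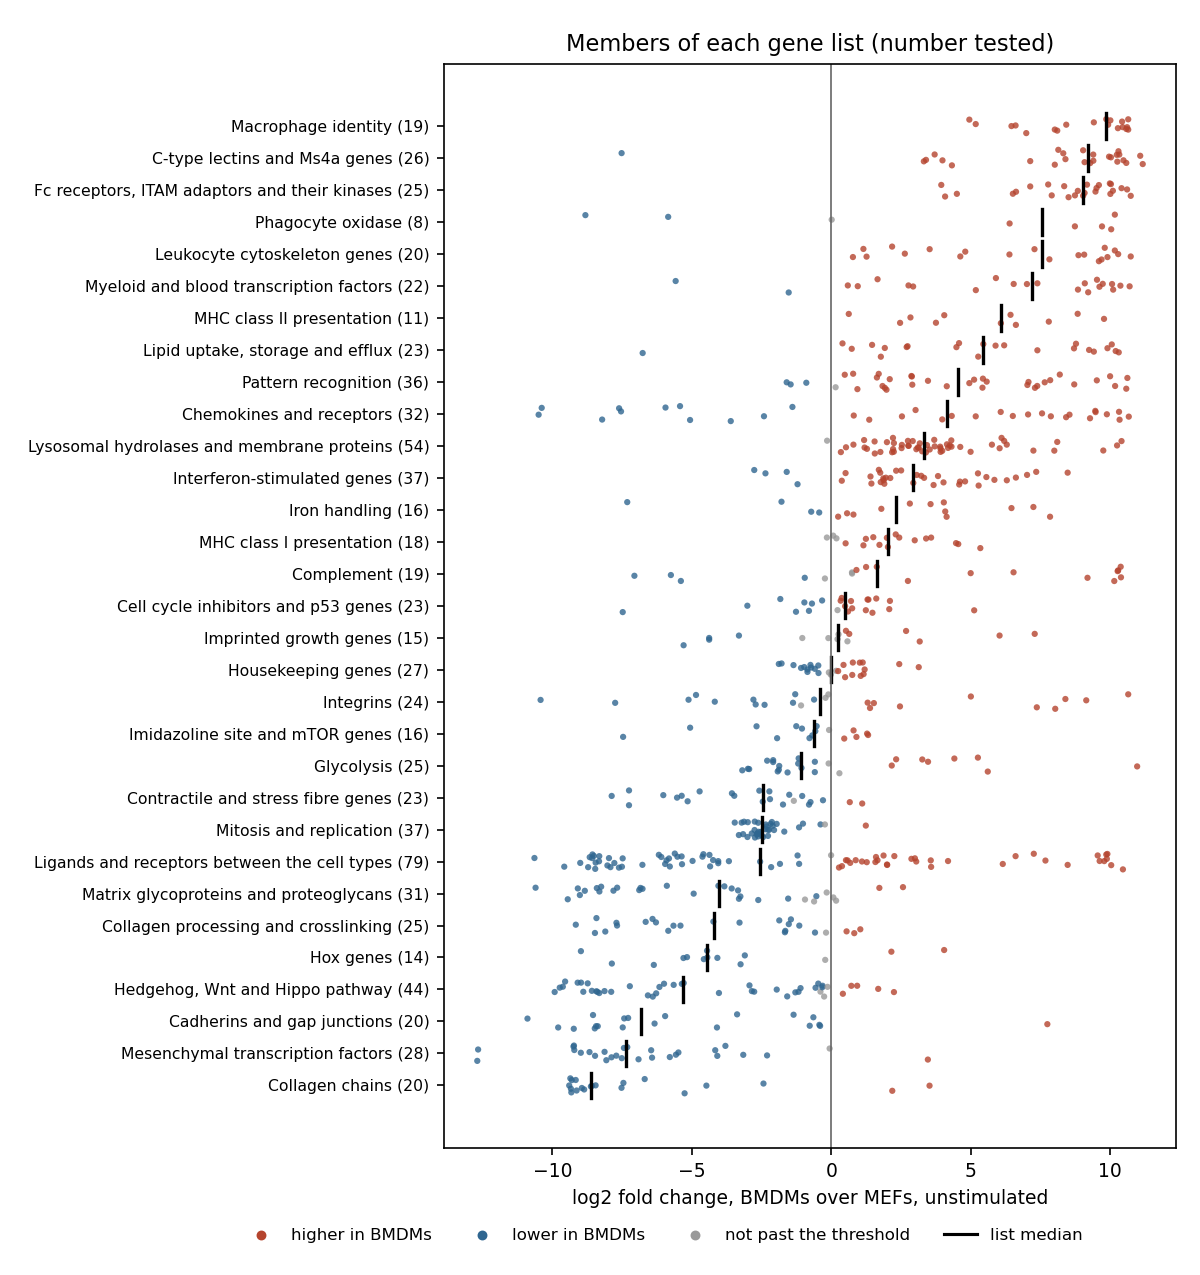
Log2 fold change of each tested member of 31 gene lists, BMDMs over MEFs, with the list's median as a black bar and the lists ordered by median. Members higher in BMDMs are red, lower ones blue and those that did not pass grey; the medians run from 9.86 for macrophage identity to -8.6 for collagen chains, while housekeeping genes have a median of -0.01.

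On the fibroblast side, collagen chains were lower in BMDMs for 18 of 20 tested genes, with a median log2 fold change of -8.6. Col1a1 (chr11:94936224-94953042), a chain of type I collagen, had 4.76, 2.88 and 2.14 CPM in BMDMs and 2212, 1625 and 2346 CPM in MEFs (log2 fold change -9.30 ± 0.348, edgeR adjusted p = 5.14e-07). The basement membrane chain gene Col4a1 had 0.929 CPM in BMDMs and 611 CPM in MEFs, and Col5a2 had 1.52 CPM in BMDMs and 579 CPM in MEFs. The 20 tested collagen genes together took 0.00176 to 0.00305% of counts in BMDM libraries and 0.768 to 0.922% in MEF libraries. Type III collagen did not follow type I in MEFs, where Col3a1 stood at 0.879 TPM and Col1a1 at 1324 TPM. Col11a2 and Col15a1 were higher in BMDMs (2.19 ± 0.552 and 3.53 ± 0.703), at 2.2 and 1.14 CPM, against 0.477 and 0.0936 CPM in MEFs.

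Of 31 tested matrix glycoprotein and proteoglycan genes 24 were lower in BMDMs, 2 higher and 5 did not pass. Fn1, the fibronectin gene (chr1:71585520-71653200), had 16.3, 13.4 and 11.5 CPM in BMDMs and 4101, 4056 and 4383 CPM in MEFs, and Hspg2, which encodes perlecan, had 2.49, 1.47 and 1.62 CPM in BMDMs and 1349, 1256 and 1280.0 CPM in MEFs. Spp1, the osteopontin gene, was higher in BMDMs and abundant in both, with 3219, 3339 and 3167 CPM in BMDMs and 825, 1183 and 929.9 CPM in MEFs (log2 fold change 1.73 ± 0.119). Thbs1, which encodes thrombospondin 1, differed less, at 255 ± 31.4 CPM in BMDMs and 369 ± 57.2 CPM in MEFs (SD, n = 3 each; log2 fold change -0.53 ± 0.124). The Thbs1 call was lost in the fits of 18 and 27 libraries (edgeR adjusted p = 0.0631 and 0.0508). Enzymes that modify collagen were lower for 21 of 25 genes: Lox, a crosslinking enzyme, by -6.65 ± 0.195, the collagen chaperone Serpinh1 by -7.70 ± 0.107, and the prolyl hydroxylase gene P4ha1 by -1.86 ± 0.079. The lysyl hydroxylase gene Plod1 was higher (246 CPM in BMDMs, 119 CPM in MEFs), as were Crtap (0.83 ± 0.1) and P3h3 (0.55 ± 0.155, but 0.16 and not called with library totals alone).

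Of 24 tested integrins 10 were higher in BMDMs and 11 lower, shares close to the 39.9% and 42.1% of all genes tested. The 24 tested genes together took 0.33 to 0.356% of counts in BMDM libraries and 0.344 to 0.356% in MEF libraries. Itgam, the CD11b chain, had 711, 705 and 790.1 CPM in BMDMs and 0.148, 0.562 and 0.674 CPM in MEFs, and its partner Itgb2 had 845 CPM in BMDMs and 2.5 CPM in MEFs. Itga3, a laminin-binding chain, had 0.649, 0.294 and 0.301 CPM in BMDMs and 529, 563 and 624 CPM in MEFs (log2 fold change -10.42 ± 0.183). Itgb1, the chain shared by many integrins, was high in both, at 907 CPM in BMDMs and 1389 CPM in MEFs (-0.61 ± 0.0794). Cadherin and junction genes were lower for 19 of 20 tested members, among them Cdh2, which encodes N-cadherin (0.298 CPM in BMDMs, 111 CPM in MEFs), and the gap junction gene Gja1 (2.32 and 144 CPM). The exception was the protocadherin gene Pcdh7, with 120.3, 101 and 122 CPM in BMDMs and 0.518, 0.792 and 0.253 CPM in MEFs (log2 fold change 7.75 ± 0.22, edgeR adjusted p = 6.84e-11). Of 23 contractile and stress fibre genes 20 were lower, such as the myosin gene Myh10 (-7.25 ± 0.118) and caldesmon, Cald1 (-7.25 ± 0.143), but Acta2, the smooth muscle actin of contractile fibroblasts, was low in both, at 1.49 CPM in BMDMs and 6.88 CPM in MEFs.

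Components of the Hippo pathway's transcriptional arm were close to absent from BMDMs. Of 16 Hippo genes 13 were lower, 2 higher and 1 did not pass. Yap1 had 0.397, 0.0327 and 0.376 CPM in BMDMs and 105, 92.8 and 104 CPM in MEFs, Wwtr1, which encodes TAZ, had 0.469, 0.196 and 0.263 CPM in BMDMs and 231, 230.1 and 232 CPM in MEFs, and their DNA-binding partner Tead1 had 0.541, 0.294 and 0.15 CPM in BMDMs and 245, 266 and 277 CPM in MEFs. The other TEAD genes, Tead2, Tead3 and Tead4, were lower as well, with log2 fold changes of -6.28 ± 0.17 and -6.16 ± 0.334 for the first pair and 1 count over the BMDM libraries, against 1720 over the MEF libraries, for Tead4. Target genes whose promoters are printed above differed alike: Ccn1 had 2.41, 1.9 and 1.77 CPM in BMDMs and 806, 962 and 820.3 CPM in MEFs, and Ankrd1 had 0.541, 0.196 and 0.301 CPM in BMDMs and 277, 326 and 279.8 CPM in MEFs. The upstream kinases were expressed in both cell types, Stk4 higher in BMDMs (1.69 ± 0.083), Lats2 as well (0.42 ± 0.0886, but 0.02 and not called with library totals alone), and Stk3 and Lats1 lower (-0.56 ± 0.0914 and -0.32 ± 0.096). The call of Lats1 was lost without the first BMDM library (-0.21). All 8 tested Hedgehog genes were lower in BMDMs, Gli3 at 0.104 CPM in BMDMs and 59.8 CPM in MEFs, and of 20 Wnt genes 15 were lower and 3 higher, the last being Fzd5, Fzd7 and Lrp6.

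Some ligands were higher in 1 cell type and their receptors in the other, as in the examples given here. Csf1, the growth factor on which macrophages depend, had 21.1, 24.8 and 22 CPM in BMDMs and 329, 398 and 398 CPM in MEFs, and Il34, the other ligand of the same receptor, had 0.108, 0 and 0.0376 CPM in BMDMs and 22.3, 20.6 and 21.3 CPM in MEFs. Their receptor gene Csf1r ran the other way, as given above. Cxcl12, a chemokine that retains blood cells in the marrow, had 1.69, 1.64 and 0.978 CPM in BMDMs and 43.4, 52.8 and 48.8 CPM in MEFs, and its receptor gene Cxcr4 had 175, 185 and 165 CPM in BMDMs and 0.222, 0.256 and 0.253 CPM in MEFs. The scavenging receptor for the same chemokine, Ackr3, was on the fibroblast side, with 1 count over the BMDM libraries and 2579 over the MEF libraries. In the reverse direction, Igf1, the gene for insulin-like growth factor 1, had 1107, 1155 and 1195 CPM in BMDMs and 5.13, 4.88 and 6.86 CPM in MEFs, while its receptor gene Igf1r was at 32.6 CPM in BMDMs and 75.1 CPM in MEFs. Gas6, which bridges dying cells to receptors of the TAM family, had 941, 937 and 906 CPM in BMDMs and 0.543, 1.3 and 1.32 CPM in MEFs. Its receptors were divided: Mertk was higher in BMDMs (276 CPM, against 2.81 CPM in MEFs), and Axl lower (52.4 CPM in BMDMs, 666 CPM in MEFs).

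Some inflammatory ligands and receptors were divided between the cell types and others were shared. Osm, which encodes oncostatin M, was at 9.35 CPM in BMDMs, against 1 count over the 3 MEF libraries, and its receptor gene Osmr at 0.263 CPM in BMDMs and 12.9 CPM in MEFs. Tnf was at 16.8 CPM in BMDMs and 0.046 CPM in MEFs, with its receptor genes Tnfrsf1a and Tnfrsf1b at 161 and 712 CPM in BMDMs and 75 and 89 CPM in MEFs. Il1r1, the interleukin 1 receptor gene, was at 0.423 CPM in BMDMs and 30.3 CPM in MEFs, while Il1b was at 1.49 CPM in BMDMs and 0.017 CPM in MEFs. The Il1b call was lost in the fits of 18 and 27 libraries (edgeR adjusted p = 0.196 and 0.0534). Sirpa, the receptor that reads the signal against phagocytosis, was at 3442 CPM in BMDMs and 22.4 CPM in MEFs, and its ligand gene Cd47 was expressed in both (349.8 and 190.2 CPM in that order). Csf2, Areg and Il6 had no count in BMDMs, against 2.84, 5.98 and 1.36 CPM in MEFs, which makes Areg, a ligand of the epidermal growth factor receptor, at least 169.9-fold lower in BMDMs. Of the transforming growth factor beta genes, Tgfb1 was higher in BMDMs (3.58 ± 0.0839), and Tgfb2 and Tgfb3 were lower (-6.77 ± 0.339 and -4.05 ± 0.311). Over the whole list of 79 tested ligands and receptors, 34 were higher, 44 lower and 1, Vegfa, did not pass (104 CPM in BMDMs, 105 CPM in MEFs). Over all genes tested 39.9% were higher and 42.1% lower, so most calls in such a list are the usual outcome.

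Chemokine and receptor genes were more often higher than lower in BMDMs, but with many exceptions. Of 32 tested 21 were higher in BMDMs and 11 lower, with a median log2 fold change of 4.15. Over all genes tested 39.9% were higher and 42.1% lower. Receptors were higher for 8 of 9, with Ackr3 the exception, and CC ligands for 9 of 12, among them Ccl9 (744 CPM in BMDMs, 8.14 CPM in MEFs) and Ccl6 (495 and 0.517 CPM). Of 11 CXC and CX3C ligands, 7 were lower. Unstimulated MEFs held more of the lymphocyte attractants Ccl5 (3.1, 2.72 and 0.677 CPM in BMDMs and 90.2, 106 and 85.4 CPM in MEFs) and Cxcl10 (1.69, 3.37 and 2.56 CPM in BMDMs and 124, 207 and 140.5 CPM in MEFs), and of the neutrophil attractant Cxcl1 (0.18, 0.458 and 0.339 CPM in BMDMs and 91.7, 124 and 80.5 CPM in MEFs). Ccl2, a monocyte attractant, differed by 1.75-fold, at 76.7 ± 8.25 CPM in BMDMs and 43.8 ± 8.63 CPM in MEFs (SD, n = 3 each; log2 fold change 0.81 ± 0.137).

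**Figure D5:**
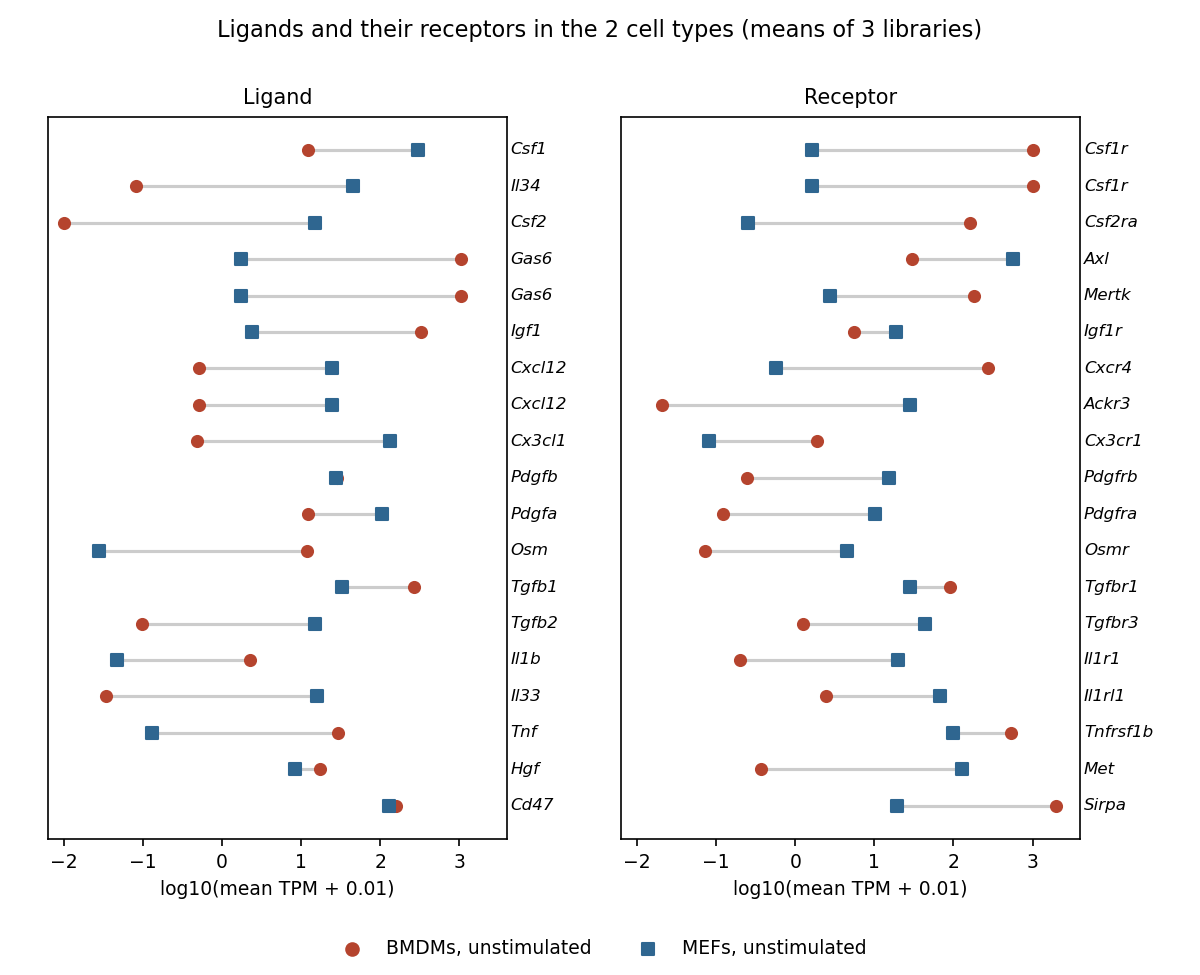
Mean level of ligands (left panel) and of their receptors (right panel, same row), as log10(TPM + 0.01), with BMDMs as red circles and MEFs as blue squares; a value of 0 lies at -2. Csf1 and Il34 are higher in MEFs and Csf1r in BMDMs, and Igf1 and Gas6 are higher in BMDMs, as in the values given in the text.

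Genes of DNA replication and mitosis were lower in BMDMs for 35 of 37 members, with a median log2 fold change of -2.49. Mki67, a marker of cycling cells, had 145, 137 and 143 CPM in BMDMs and 953, 942 and 951 CPM in MEFs (log2 fold change -2.74 ± 0.0761, edgeR adjusted p = 7.22e-13), and Top2a, a topoisomerase of dividing cells, had 129, 118 and 109 CPM in BMDMs and 1049.6, 1007 and 1123 CPM in MEFs. Pcna, the sliding clamp of DNA polymerases, was the exception, with 598, 603 and 559 CPM in BMDMs and 252, 271 and 221 CPM in MEFs (log2 fold change 1.24 ± 0.0874). Mcm6, another replication gene, was lower by only -0.38 ± 0.0731, and Gins1 did not pass (-0.23 ± 0.149). Cdkn2a, whose locus encodes the senescence-linked inhibitors p16 and p19Arf, had 1.3, 0.491 and 1.05 CPM in BMDMs and 165, 167 and 168 CPM in MEFs, and Cdkn2b had 1.63 CPM in BMDMs and 13.1 CPM in MEFs. Trp53, the p53 gene itself, was lower in BMDMs (64.1 CPM, against 154 CPM in MEFs), whereas its target Cdkn1a was higher (275 CPM in BMDMs, 64 CPM in MEFs), as was Sesn1, a stress-induced inhibitor of mTORC1 signalling (327 CPM in BMDMs, 9.36 CPM in MEFs). Of all 23 cell cycle inhibitors and p53 genes 14 were higher, 8 lower and 1 did not pass.

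Glycolysis genes were lower in BMDMs for 15 of 25 members and higher for 8, and the 25 together took 0.396 to 0.44% of counts in BMDM libraries and 1.5 to 1.78% in MEF libraries. Eno1, the enolase gene, had 386, 385 and 364 CPM in BMDMs and 3784, 2999 and 3565 CPM in MEFs, and Ldha, which makes lactate, had 462 CPM in BMDMs and 1956 CPM in MEFs. Gapdh, often used as a reference gene, was lower in BMDMs as well (219 CPM, against 803 CPM in MEFs; -1.88 ± 0.0809). The hexokinase genes differed in direction: Hk1 and Hk2 were lower (-1.56 and -1.17), and Hk3, the hexokinase of leukocytes, was higher, with 504, 479 and 504 CPM in BMDMs and 0.247, 0.358 and 0.112 CPM in MEFs (log2 fold change 10.97 ± 0.174). The glucose transporter gene Slc2a1 was lower (-2.30) and Slc2a3 higher (5.26). Cytosolic ribosomal protein genes took 2.19 to 2.45% of counts in BMDM libraries and 4.29 to 4.81% in MEF libraries. Among 27 commonly used reference genes 12 were higher and 12 lower, against 39.9% higher and 42.1% lower over all genes tested. The 3 that did not pass were Eef1a1 (-0.01 ± 0.084), Rpl13a (-0.08 ± 0.104) and Polr2a (0.17 ± 0.0878). Actb was higher in BMDMs by 0.76 ± 0.0862. Polr2a was called higher, at 0.25, without the first BMDM library or the third MEF library, and with library totals alone it was called lower (-0.22), as were Eef1a1 (-0.41) and Rpl13a (-0.48). Of 15 tested imprinted genes 6 were higher, led by Asb4 (7.30), 4 lower, led by Plagl1 (-5.29), and 5 did not pass, while Igf2, H19 and Dlk1, growth genes of embryonic tissue, were below the filter in both cell types.

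Genes named in connection with ImP signalling differed in how far the cell types shared them before stimulation. Nisch, which encodes nischarin, a candidate for the imidazoline I1 receptor, had 393, 367 and 359.8 CPM in BMDMs and 276, 255 and 278 CPM in MEFs (log2 fold change 0.47 ± 0.0763, edgeR adjusted p = 6.95e-05). In TPM, which carry no TMM factor, the levels were 80.8 ± 4.88 in BMDMs and 86.2 ± 4.5 in MEFs (SD, n = 3 each), which runs in the opposite direction. With library totals alone its log2 fold change was 0.07 and not called. Mtor was at 61.1 CPM in BMDMs and 97.8 CPM in MEFs, and the p38 kinase gene Mapk14 at 177 and 72.7 CPM in that order. Irs1, an adaptor of the insulin receptor, was at 0.18, 0.0981 and 0 CPM in BMDMs and 17.1, 18.2 and 16.4 CPM in MEFs, while Irs2 was at 49.1 CPM in BMDMs and 72.8 CPM in MEFs. Of 16 tested genes of this list 5 were higher, 10 lower and 1, Rheb, did not pass (-0.08 ± 0.0811).

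Folds were ranked among called genes with a gene name, a mean of at least 5 CPM, no overlap between groups and at least 1 count in each group. Genes at 0 counts in 1 group, such as Tbx3 and Foxf1, were thus not ranked. The lowest log2 fold change in the list of mesenchymal transcription factors was -12.69, beyond any ranked here. Under this rule the largest folds came from genes with only a few counts on the other side. Among the ranked genes the highest fold in BMDMs was in Fat3, an atypical cadherin gene. It had 75.4, 76.9 and 93.5 CPM in BMDMs and 0, 0.0255 and 0.0281 CPM in MEFs, a ratio of 4704-fold (95% interval 1302 to 38849) from 2 counts in MEFs. Mmp27, a matrix metalloproteinase gene, had 63.3, 72.9 and 59.8 CPM in BMDMs and 2 counts in MEFs, a ratio of 3786-fold (95% interval 1048 to 31271). Cd83, a gene of activated antigen-presenting cells, was 2759.7-fold higher (130.0 CPM in BMDMs, 0.0431 CPM in MEFs), and Cd300ld3, Clec4a3, Clec10a, Hk3, Pcp4l1, St8sia4, Pde3b and Mcoln3 followed, with means of 26.9 (Clec10a) to 496 CPM (Hk3) in BMDMs and of at most 0.239 CPM (Hk3) in MEFs. Fam177a2 met the same rule but varied widely among the BMDM libraries, at 18.9, 65.4 and 2.29 CPM, against 1 count over the MEF libraries (log2 fold change 11.19 ± 2.67). Its call was lost without any 1 of the MEF libraries (10.73 to 12.85), and its reads could be divided with the related gene Fam177a. Among the ranked genes on the fibroblast side the highest fold was in Cdh17, the liver-intestine cadherin gene. It had 1 count in BMDMs and 55, 42.1 and 41.1 CPM in MEFs, lower in BMDMs by a ratio of 3934-fold (95% interval 706 to 155427). Tgfa, a growth factor gene, had 1 count in BMDMs and 33.8, 31.1 and 36.4 CPM in MEFs, and Gdnf, a neurotrophic factor gene, 1 count in BMDMs and 21.8, 30.9 and 22.8 CPM in MEFs. Pbp2, Cacng7, Klra4, Cdh3, Mboat2, Mpp2, Lama5, Ackr3 and Ttll7 completed the 12, with means of at most 0.072 CPM (Ttll7) in BMDMs and of 22.4 (Ackr3) to 103 CPM (Ttll7) in MEFs. Klra4 belongs to the Ly49 family of natural killer cell receptors, and had 0.0721, 0 and 0 CPM in BMDMs and 55.6, 59.8 and 46.3 CPM in MEFs, and this family too has near-identical members.

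By difference in TPM, which carry no TMM factor, the largest gaps were in a handful of macrophage products. Lyz2 stood at 39460.1 ± 1495 TPM in BMDMs and 41.5 ± 13.8 TPM in MEFs, Ftl1 at 28726 ± 1008 and 2407 ± 69.3 TPM, Ctsd at 25429 ± 853 and 544 ± 27.5 TPM, and Psap at 19684 ± 921 and 1591 ± 71.5 TPM in the same order (SD, n = 3 each). Ctsb and Fth1 came next, at 12194 and 10234 TPM in BMDMs and 274 and 920.0 TPM in MEFs. The gaps on the fibroblast side were smaller and in genes that both cell types expressed: S100a11 stood at 539 ± 21.9 TPM in BMDMs and 5141 ± 19.6 TPM in MEFs, Rplp1 at 3479 ± 200.2 and 7652 ± 329.6 TPM, and Actg1 at 3249 ± 47.8 and 7055 ± 439 TPM in that order. Rplp0, Lgals1 and Hsp90ab1 followed, with log2 fold changes of -1.08, -0.52 and -1.72. For S100a11, Rplp1 and Actg1 the log2 fold changes, which include TMM scaling, were -2.69, -0.58 and -0.56. For Rplp1 and Actg1 this is under 2-fold.

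Genes detected on only one side were a minority. At least 1 CPM in all 6 libraries was reached by 9630 genes. These include genes far lower in 1 cell type, such as Lyz2 in MEFs and Col1a1 in BMDMs, so the count is not one of genes shared alike. A further 224 genes had at least 1 CPM in all 3 BMDM libraries and at most 3 counts over the MEF libraries, and 319 genes had at least 1 CPM in all 3 MEF libraries and at most 3 counts over the BMDM libraries. With a mean under 0.1 CPM on the other side in place of 3 counts, there were 400 and 486 such genes.

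The difference between the cell types was measured again in libraries not used above, after ImP. At 1 h, 5468 genes (40.1%) were higher and 5712 (41.9%) lower in BMDMs, and at 2 h 5587 (40.9%) and 5937 (43.5%). Of the genes called higher in unstimulated BMDMs, 92.8% were called higher at 1 h and 95.5% at 2 h, and of those called lower 92.3% and 95.2% were called lower. These make up 92.3% and 92.9% of the genes called higher at 1 and 2 h, and 92.8% and 92.2% of those called lower. With all 6 libraries at each time, Smad6, which encodes an inhibitor of bone morphogenetic protein signalling, was the one gene called in opposite directions: its log2 fold change was -1.82 unstimulated, at 0.56 CPM in BMDMs and 1.98 CPM in MEFs, and 1.34 at 1 h and 1.72 at 2 h (edgeR adjusted p = 0.000733, 0.00839 and 0.00977). The difference between times was not tested. Without the third BMDM library of each time, which stood apart in earlier results of these data, 1 gene called higher and 8 called lower in unstimulated BMDMs were called in the opposite direction at 1 h, and 0 and 2 at 2 h.

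Directions for gene families with near-identical members, among them H2, Ifi200, Oas, Clec4a, Ms4a, Fcgr and Naip genes, are uncertain gene by gene because the counting could divide their reads. The strand of counting is not given in the sources used here, so genes that overlap another gene on the opposite strand, 66 of the 239 named here with annotated positions and among them Csf1r, Ctsb, B2m, Gas6, Mertk, Fn1, Zeb2, Hk3, Cx3cr1 and Nisch, may hold reads of their partner.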

How the data were processed

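The 6 libraries were sequenced on a NextSeq 2000 from NEBNext Ultra II Directional libraries, per the labels' protocols. The deposited table holds estimated counts per gene symbol, made by the authors with cutadapt, STAR and RSEM on mm10 (GRCm38.p6), per the submitters' processing notes. Every value was already whole, so none was rounded. The strand setting is not given in the sources used here.

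From those counts, 833 genes on X or Y and 464 symbols with no chromosome in the annotation (GENCODE gene models of the same build) left the table, leaving 23895. edgeR 4.0.16 (R 4.3.3; TMM, low counts removed by filterByExpr at 10, robust quasi-likelihood test, two-sided) compared the 3 BMDM with the 3 MEF libraries, with Benjamini-Hochberg adjustment over 13638 genes and a threshold of 0.05. Fold changes are BMDMs over MEFs. CPM, TPM and their SDs were computed here, TPM from merged exon lengths. A group at 0 counts was set to 3 counts over its libraries, and ratios from 1 to 3 counts have exact 95% intervals; floors and intervals cover counting error only. Fits at 1 and 2 h after 10 µg/mL ImP used the 6 libraries of each time.

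On simulated counts for 12531 genes of this comparison the test called 60% of genes changed 1.5-fold, 78% of those changed 2-fold, 98% of those changed 4-fold and 100% of those changed 8-fold, with 15 unchanged genes called. The simulation gave both groups the MEF levels and changed 50 genes at each fold, up and down evenly, all averaging at least 1 CPM in MEFs. In the data 82% of genes were called, so these rates need not hold for a comparison in which most genes differ. Counts of every replicate pair differed by more than sampling noise, so none was counted as a repeat.

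The comparison, the gene lists and the motifs were chosen with earlier results of these data known, so no list was tested as a set, and list counts and medians are descriptions. Genes named are the 12 with the largest fold and the 6 with the largest TPM difference in each direction among genes that do not overlap between groups, average 5 CPM or more (the 12 with at least 1 count in each group) and have a gene name, the list members most abundant or furthest from 0 in each direction, and exceptions within a list. Some genes are not reported here. Smad6 and CT010467.1 were chosen after their values were seen. Alternatives were DESeq2 1.42.0, limma-voom 3.58.1, other scalings and filters, the sex chromosomes kept, fits of 18 and 27 libraries, a gene-length correction, a size threshold and each library left out.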

Additional observations from a re-analysis of the deposited data

How the results depend on the processing

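The counts of 5435 genes higher and 5747 lower in BMDMs stayed within 1.5 times under the alternatives run, with 5355 to 5498 higher and 5616 to 5801 lower when 1 library was left out. With library totals alone they were 4255 and 7005. No paired analysis was possible because the labels give the libraries codes and no replicate number shared between the cell types. Of 1054 recomputed counts of list members 1019 stayed within 1.5 times. Myeloid transcription factors lower went to 1 under DESeq2, limma-voom, a mean of at least 1 CPM, the fit of 27 libraries and the gene-length correction, and ranged between 1 and 2 with a library left out, which turned on Myb. With a mean of at least 1 CPM fewer genes were tested, and Hox genes, collagens and matrix genes higher each went to 1 and oxidase genes lower to 0. Matrix genes higher went to 4 in the fit of 27 libraries. MHC class I genes lower, none in the main comparison, numbered 1 under limma-voom and in the fit of 18 libraries and 2 with library totals, where 1 lysosomal gene was lower too. C-type lectin and Ms4a genes lower numbered 2 with no filter and in the fits of 18 and 27 libraries, and between 1 and 2 with a library left out. The causes of these shifts were not tested, apart from the genes that a filter removes.

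Asking also for a 2-fold difference left 3696 genes higher and 3835 lower unstimulated, against 3771 lower at 1 h and 3710 higher and 3865 lower at 2 h. By its construction it removed small differences: 1 collagen processing gene, 1 contractile gene and 2 Hedgehog, Wnt and Hippo genes remained higher, cell cycle inhibitors came to 8 higher and 4 lower, iron genes to 2 lower, reference genes to 7 higher and 4 lower, and imidazoline and mTOR genes to 2 higher and 6 lower. The PU.1-type share of higher genes was 6.35% in the 250 bases before the start alone. Among single genes, 199 of 241 named genes kept their side of the threshold, and where called their direction, under the alternatives run. Direction was not checked where a gene was called neither in the main comparison nor in the alternative. With library totals alone the log2 fold change of Gaa was -0.05, of Polr2a -0.22, of Rac1 -0.38 and of S100a4 -0.23, each with the opposite sign to the main comparison. Other genes that did not pass in the main comparison were called lower with library totals alone. Among them were Arsa (-0.54), C1ra (-0.62), Foxp1 (-0.45), Gins1 (-0.62), Vegfa (-0.40) and Rheb (-0.47). With 3 libraries a group, genes of low level such as Myb and most Hox genes rest on few counts, and a 1.5-fold difference was often missed on simulated data.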
